A study of Mus musculus with 6 samples.

Results

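The Schlafen family in mouse N9 microglia comprised 7 genes here, Slfn1, Slfn2, Slfn3, Slfn4, Slfn5, Slfn8 and Slfn9, chosen by gene name from the 54532 genes of the deposited count table. All 7 are protein-coding. N9 cells are microglia of the mouse brain that were immortalized and are kept as a line. The LPS group was 3 samples of N9 microglia stimulated for 6 h with 1 µg/ml of lipopolysaccharide (LPS), which coats gram-negative bacteria, and the control group was 3 samples of unstimulated N9 microglia. RNA from all 6 samples was sequenced, and the question was how the transcriptome differs between LPS-stimulated and control cells. The labels do not say whether the 3 samples of a group came from separate cultures, so p-values measure the spread between these samples, which may be technical.

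Schlafen genes take their name from the German word for sleep, after the growth arrest seen when the first of them was expressed in mouse thymocytes. All share an amino-terminal Schlafen core. Slfn1 and Slfn2 encode the short proteins of the family, Slfn3 and Slfn4 proteins of intermediate length, and Slfn5, Slfn8 and Slfn9 long proteins with a helicase-like carboxy-terminal part. Many of them are known as interferon-induced genes, and macrophages are known to raise several of them after stimulation by LPS, which signals through Toll-like receptor 4 to NF-kB and, by way of secreted type I interferon, to a complex of factors that includes STAT2 and IRF9. This complex binds the interferon-stimulated response element (ISRE) of promoters.

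The 7 genes lie in a single cluster on chromosome 11, from base 82951349 to base 83215154 (GRCm38), a span of 264 kb. Slfn5 (ENSMUSG00000054404, plus strand) lies from 82951349 to 82964840, Slfn9 (ENSMUSG00000069793, minus strand) from 82978390 to 82991830 and Slfn8 (ENSMUSG00000035208, minus strand) from 83002158 to 83020810. Slfn2 (ENSMUSG00000072620, plus strand) follows from 83065112 to 83070678 and Slfn1 (ENSMUSG00000078763, plus strand) from 83116849 to 83122670. Slfn4 (ENSMUSG00000000204, plus strand) and Slfn3 (ENSMUSG00000018986, plus strand) end the cluster, from 83175186 to 83190216 and from 83191330 to 83215154. All 7 had the same coordinates in GENCODE release M21.

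Promoter windows of 300 bases, 250 before and 50 after the annotated start site, were taken from RefSeq on GRCm38.p6 for all 7 genes. Slfn8 had a pair of overlapping windows, so that there were 8. The windows of the long members Slfn8, Slfn9 and Slfn5 are shown because Slfn8 and Slfn9 are much alike in the windows shown and differed widely in their response to LPS, and because these are the windows that held an ISRE core, here GAAA, any 2 bases and GAAA, on either strand. Capitals mark the ISRE core and, near the beginning of the Slfn9 window, a match to the NF-kB site. The window of Slfn8 is chr11:83020761-83021060 on the minus strand, that of Slfn9 is chr11:82991781-82992080 on the minus strand, and that of Slfn5 is chr11:82951852-82952151 on the plus strand.
Slfn8: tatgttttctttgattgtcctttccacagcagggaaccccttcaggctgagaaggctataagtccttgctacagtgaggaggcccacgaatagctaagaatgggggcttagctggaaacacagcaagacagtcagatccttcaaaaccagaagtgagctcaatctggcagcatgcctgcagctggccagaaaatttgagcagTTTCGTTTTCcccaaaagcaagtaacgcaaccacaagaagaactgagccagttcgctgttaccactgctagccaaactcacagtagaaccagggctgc
Slfn9: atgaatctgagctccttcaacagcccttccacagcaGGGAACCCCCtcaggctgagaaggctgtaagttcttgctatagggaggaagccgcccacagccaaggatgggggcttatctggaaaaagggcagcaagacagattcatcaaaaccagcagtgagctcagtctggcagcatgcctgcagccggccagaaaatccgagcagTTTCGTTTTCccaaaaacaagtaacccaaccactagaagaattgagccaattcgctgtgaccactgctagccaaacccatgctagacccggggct
Slfn5: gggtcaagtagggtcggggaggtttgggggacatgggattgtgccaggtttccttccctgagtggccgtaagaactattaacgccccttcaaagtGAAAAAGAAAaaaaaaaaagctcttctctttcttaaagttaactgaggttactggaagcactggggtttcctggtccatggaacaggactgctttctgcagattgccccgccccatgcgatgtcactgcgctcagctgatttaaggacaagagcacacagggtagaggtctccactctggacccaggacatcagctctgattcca
In a global alignment the Slfn8 window shown and the Slfn9 window were identical at 252 of 312 positions (80.8%). The other window of Slfn8, which begins at another annotated start site, was 47.8% identical to that of Slfn9 over its full length. Every other pair of windows from different members lay between 46.5% and 53.4%. The ISRE core of Slfn8 was TTTCGTTTTC, at 48 to 39 bases before the start site of the window shown, or positions -136 to -127 from the other start site, and Slfn9 held the identical string at 45 to 36 bases before its own. The core of Slfn5 was GAAAAAGAAA, at 155 to 146 bases before a start site that lies inside the gene as the count table lists it. An ISRE core was thus found in 3 of the 7 members, as 1 site in each, since both windows of Slfn8 held the same site. It was present in 3.44% of 32851 such windows of all genes. The NF-kB site was found in the windows of Slfn9 and Slfn1, against 8.46% of all windows. A further motif that was searched matched in none of the 8 windows, against 8.3% of all windows. A match of letters is a description of the window, and its absence says only that these letters are not in it.

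The neighbouring genes of the short and intermediate proteins, Slfn1 to Slfn4, held none of the ISRE cores. The longest string that all 4 windows had in common was ACTTCCTGG, found by comparing them and not searched for beforehand. It was present in 0.843% of all windows on either strand and in no window of Slfn5, Slfn8 or Slfn9. Its presence in the 4 windows follows from how it was chosen. How often 4 windows of other genes share a string of this length was not computed. Its TTCC is the core bound by ETS factors, the family of PU.1, the lineage factor of macrophages and microglia. The 30 bases around it are shown, with the shared string in capitals. They lie on the plus strand at chr11:83116736-83116765 for Slfn1, chr11:83065047-83065076 for Slfn2, chr11:83191278-83191307 for Slfn3 and chr11:83175103-83175132 for Slfn4.
Slfn1: gatgtctcacACTTCCTGGagtgacatcaa
Slfn2: cagggctttcACTTCCTGGagggtgacagt
Slfn3: ggatgacagaACTTCCTGGgggagggactc
Slfn4: ttccggttatACTTCCTGGagtgacgaaat
The string began 74, 55, 42 and 73 bases before the start site of Slfn1, Slfn2, Slfn3 and Slfn4.

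The libraries held between 16363767 and 17956772 counts. Levels are given as CPM, the usual scaling of counts by TMM-normalized library size, and, where genes are compared with each other, as RPKM, the CPM per kilobase of gene length in the table. Of 14 markers of microglia and macrophages, all were counted above 3 in at least a library. Their summed level was between 2219 and 2284 CPM in the control libraries and between 2400 and 2460 CPM in the LPS libraries. However, P2ry12, Aif1 and C1qa, which mark resting microglia in brain, stayed under 1 CPM in the mean of both groups. Schlafen genes are also known from lymphocytes and neutrophils. Of the markers of T cells, B cells and neutrophils, 4 of 6, 4 of 5 and 4 of 7 had at most 3 counts in every library. Cd3e, Cd3g, Cd8a and Ly6g were at 0 in all 6. The summed T cell list, most of it Lck, lay between 6.08 and 7.43 CPM in control and between 8.96 and 12 CPM in LPS libraries, and the neutrophil list, nearly all of it S100a8, between 3.79 and 4.48 CPM and between 10.4 and 11.7 CPM. The B cell list was at most 0.0584 CPM in control and between 0.609 and 1.2 CPM in LPS libraries, of which Pax5 gave most. The lists of astrocytes, neurons and oligodendrocytes were each carried by a single gene, Aldh1l1, Map2 and Mbp, with the other markers under 1 CPM in the mean of both groups. Their sums were lower in the LPS libraries, at 21.5 to 25.2, 16.6 to 18.3 and 27.9 to 29.5 CPM, than in the control libraries, at 27.9 to 29.9, 21.7 to 23.6 and 33.4 to 39.8 CPM. The part of these cell types in the Schlafen results was not tested. Hepatocyte markers set the control libraries apart, with 0.467, 14.2 and 22.4 CPM in control replicates 1, 2 and 3 and at most 0.731 CPM in the LPS libraries. In control replicates 1, 2 and 3, Slfn2 was at 58.1, 52.6 and 60.1 CPM, Slfn3 at 26, 20.4 and 23 CPM and Slfn8 at 0.701, 0.454 and 0.43 CPM, and control replicate 1 was the highest control library for Slfn3, Slfn4, Slfn5 and Slfn8. Without it, the log2 fold changes of these were 1.38, 3.99, 3.70 and 5.05. In bulk RNA, more expressing cells and more RNA per cell cannot be told apart.

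LPS-stimulated N9 microglia had higher Schlafen levels than control cells in every member counted. The rise was large for Slfn8, Slfn4, Slfn5 and Slfn2, between 8.96-fold and 28.2-fold, and small for Slfn3 and Slfn9, 2.47-fold and 2.33-fold. DEG were genes whose log2 fold change exceeded 1.5 in size with an adjusted p under 0.05 by edgeR's quasi-likelihood test. By this rule 4 of the 7 members were up-regulated DEG and none was down-regulated, where 2.40% of the 12296 genes tested were up-regulated and 0.252% down-regulated. Slfn3 and Slfn9 passed the test without reaching the fold change, and Slfn1 was below the filter on low counts. With no threshold on the fold change, all 6 tested members rose at an adjusted p under 0.05, against 18.7% of all tested genes. The median log2 fold change over the 6 was 3.42, and over all tested genes it was close to zero. In each of the 6, every LPS library lay above every control library, as in 23.7% of all tested genes.

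**Figure D1:**
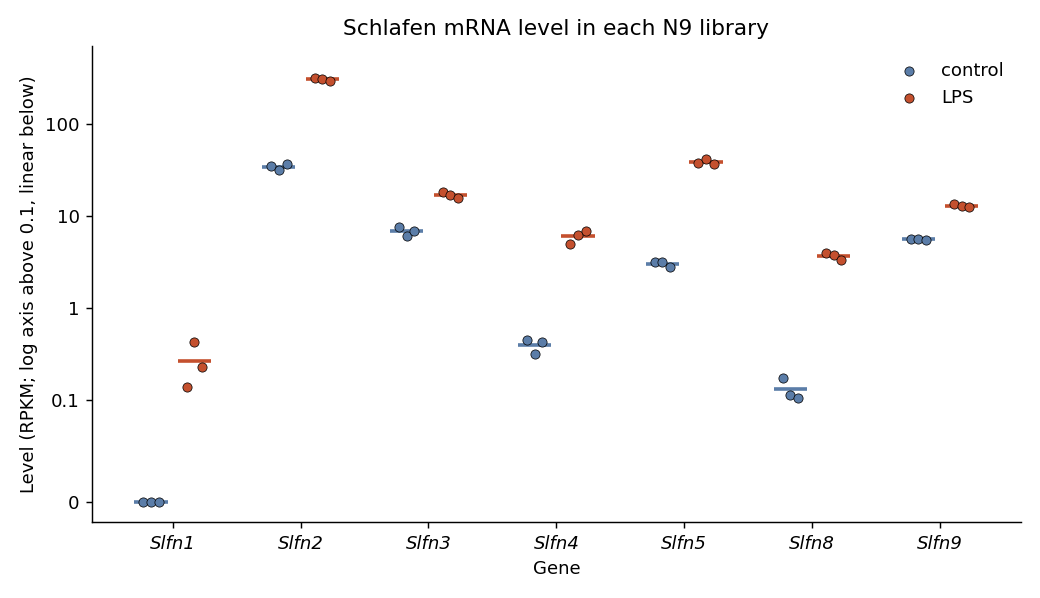
Level of each Schlafen gene (RPKM, on an axis that is logarithmic above 0.1 and linear below) in the 3 control and 3 LPS libraries, with a point for each library and a line at the group mean. For every gene the LPS points lie above the control points, with Slfn2 highest in both groups and Slfn1 at 0 in all control libraries.

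Slfn2, known for keeping T cells and monocytes in quiescence, was the most abundant member. It was counted 996, 927 and 1117 times in control replicates 1, 2 and 3, against 8333, 8446 and 7996 times in LPS replicates 1, 2 and 3. The groups were far apart, and the libraries within a group were close. The mean level was 56.9 ± 3.91 CPM in control and 510 ± 21.1 CPM in LPS-stimulated cells (SD, n = 3), so that Slfn2 rose by 3.16 ± 0.06 (SE) on the log2 scale (edgeR adjusted p = 4.6e-15).

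Slfn1, the other short member and the gene first tied to growth arrest of thymocytes, was barely counted. It had 0 counts in all 3 control libraries and 4, 13 and 7 in LPS replicates 1, 2 and 3. A count of 0 allows up to 3 counts, which are between 0.161 and 0.175 CPM in the control libraries, for counting error alone. Every LPS library was above that floor, LPS replicate 1 by a single count. Against 3 counts in each control library, the mean LPS level of Slfn1 was 2.91-fold higher, or 2.01-fold without LPS replicate 2. These folds allow for counting error in the control libraries only. The LPS counts are few and have an error of their own, so neither fold is a lower bound. The filter of edgeR removed it. Without the filter it passed the test (edgeR adjusted p = 3.2e-04), as it did by DESeq2 (adjusted p = 0.0022). The edgeR fit without the filter took the spread between libraries wholly from a trend over all genes and not from Slfn1 itself.

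Among the intermediate members, which lie side by side at the end of the cluster, the response was unequal. Slfn4, a gene of the myeloid lineage, was counted 30, 22 and 31 times in control cells and 308, 400 and 438 times after LPS. Even the lowest LPS library had several times the counts of the highest control library, while LPS replicate 1 was below the other two. Mean levels of 1.56 ± 0.270 and 23.5 ± 3.65 CPM (SD, n = 3) gave a rise of 3.91 ± 0.17 (SE) in log2 units (edgeR adjusted p = 1.3e-10). Slfn3, known from studies of T cells and of intestinal epithelium, was much better counted in control cells. Its counts were 445, 360 and 427 without LPS and 964, 942 and 861 with LPS. The groups did not overlap, yet the gap was far smaller than for Slfn4. Slfn3 went from a mean of 23.1 ± 2.79 CPM to 57 ± 4.35 CPM, a rise of 1.30 ± 0.09 (SE) in log2 units (edgeR adjusted p = 1.9e-08). Its 95% interval of 1.12 to 1.49 lay under the threshold of 1.5.

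The long members differed widely, from Slfn8 with the largest rise of the tested family to Slfn9 with a rise whose 95% interval overlapped that of Slfn3. Slfn8 was counted 12, 8 and 8 times in control cells and 253, 253 and 223 times after LPS. It was thus close to the limit of counting in control cells and well counted with LPS. Its mean was 0.528 ± 0.150 CPM in control and 15 ± 1.28 CPM in LPS-stimulated cells (SD, n = 3), and the rise was 4.82 ± 0.20 (SE) in log2 units (edgeR adjusted p = 7.6e-11). Only 39 of the 12296 tested genes had a larger log2 fold change. Slfn9, its neighbour on the same strand, gave 570, 590 and 596 counts without LPS and 1250, 1251 and 1226 with LPS. The libraries of a group were nearly equal. The means were 32.9 ± 0.755 and 76.7 ± 2.32 CPM, and Slfn9 rose by 1.22 ± 0.06 (SE) in log2 units (edgeR adjusted p = 2.2e-10), with a 95% interval of 1.10 to 1.34. In the windows shown for them, these members were 80.8% identical and shared the ISRE core. Slfn5, whose protein is found in the nucleus, was counted 341, 351 and 323 times in control cells and 3743, 4300 and 3777 times after LPS. LPS replicate 2 was the highest, and the groups were far apart. From 19.1 ± 1.46 CPM the mean went to 243 ± 16.9 CPM, and the rise was 3.67 ± 0.07 (SE) in log2 units (edgeR adjusted p = 6.7e-15).

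**Figure D2:**
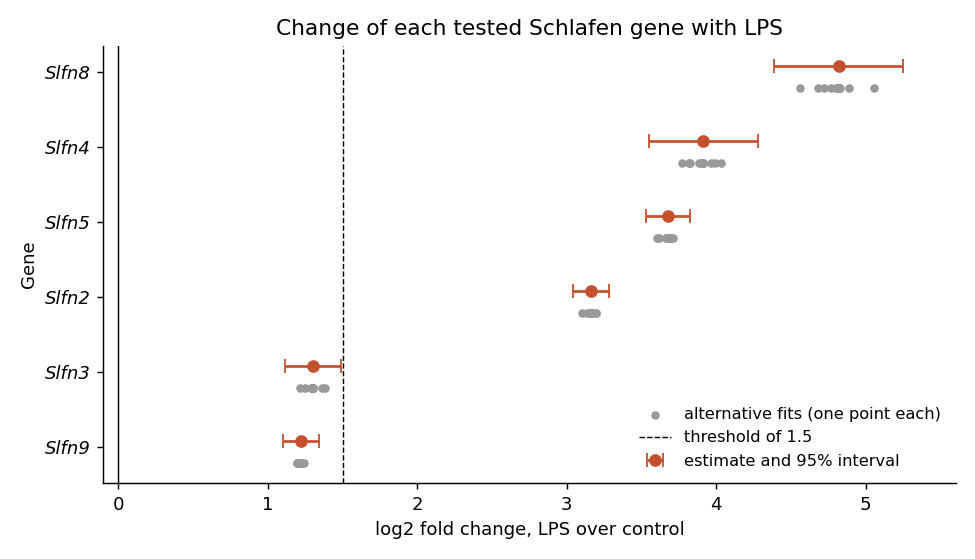
The log2 fold change of LPS over control for the 6 tested Schlafen genes, with its 95% interval from edgeR, and a grey point for each alternative fit. Slfn8, Slfn4, Slfn5 and Slfn2 lie between 3.16 and 4.82, all above the dashed threshold of 1.5, and Slfn3 and Slfn9 lie below it at 1.30 and 1.22.

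The 6 tested members fell into 2 ranges of fold change, with nothing between 1.30 and 3.16. Within the upper range, the 95% intervals of Slfn8 (4.39 to 5.25) and Slfn4 (3.55 to 4.28) did not overlap, whereas that of Slfn5 (3.53 to 3.82) overlapped that of Slfn4. The interval of Slfn2, 3.04 to 3.28, was below all of these. The ratio of a pair of members within a library does not depend on how libraries are scaled, and it was compared between groups for all 15 pairs of tested members. The share of all gene pairs whose groups do not overlap was not computed as a background. In 13 pairs of members the control and LPS libraries did not overlap. For each of these the two-sided exact permutation test gave p = 0.1, the smallest p that 3 libraries against 3 allow, and 0.115 after Benjamini-Hochberg adjustment over the 15 pairs, so that no pair could pass 0.05. The log2 ratio of Slfn8 to Slfn9 was -5.03, -5.66 and -5.68 in control cells but -1.76, -1.76 and -1.92 after LPS. It thus moved by 3.64. The log2 ratio of Slfn3 to Slfn8 moved nearly as far, by -3.56. Of the intermediate members, the log2 ratio of Slfn3 to Slfn4 fell by 2.62 from a mean of 4.12, to 1.86, 1.45 and 1.19 in LPS replicates 1, 2 and 3, so that Slfn4 came closer to Slfn3. The remaining pairs overlapped. The log2 ratio of Slfn3 to Slfn9 was 0.289 ± 0.180 in control and 0.375 ± 0.0702 in LPS libraries (exact permutation test, p = 0.7, adjusted p = 0.7), and that of Slfn4 to Slfn5 was -2.95 ± 0.325 and -2.70 ± 0.251 (exact permutation test, p = 0.5, adjusted p = 0.536).

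**Figure D3:**
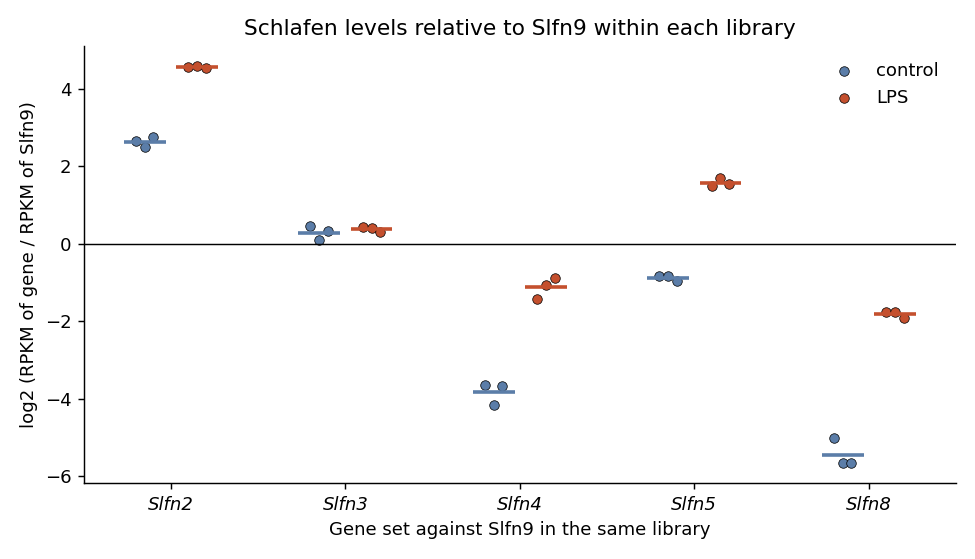
The log2 ratio of each other tested member to Slfn9 within the same library, by RPKM, with a point for each of the 3 control and 3 LPS libraries and a line at the group mean. Slfn3 keeps about the same ratio in both groups (0.289 and 0.375), and Slfn8 moves farthest of these, from a mean of -5.45 to -1.81.

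Per length, the order of the members changed with LPS. In control cells it was Slfn2 with 34.2 ± 2.35 RPKM (SD, n = 3), then Slfn3 with 6.78 ± 0.817, Slfn9 with 5.52 ± 0.126, Slfn5 with 3.01 ± 0.231, Slfn4 with 0.392 ± 0.0682 and Slfn8 with 0.129 ± 0.0366 RPKM, and Slfn1 at 0. In no step of this order did the ranges of the libraries overlap. The closest as a ratio were Slfn3, whose lowest library had 5.98 RPKM, and Slfn9, whose highest had 5.61. In LPS-stimulated cells Slfn2 was at 307 ± 12.7 RPKM, followed by Slfn5 with 38.4 ± 2.67, Slfn3 with 16.7 ± 1.28, Slfn9 with 12.9 ± 0.389, Slfn4 with 5.94 ± 0.921, Slfn8 with 3.67 ± 0.313 and Slfn1 with 0.263 ± 0.148 RPKM. Again no neighbours in the order overlapped. Slfn5 moved from behind Slfn3 and Slfn9 to ahead of both, and the order of the other members among themselves was kept.

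The summed level of the 7 members was 51.9, 46.7 and 51.5 RPKM in control cells and 395, 391 and 367 RPKM after LPS, 7.68-fold higher in the mean. Slfn2 made up most of this sum in every library. Its share was 68.3% ± 1.55 in control and 79.7% ± 0.585 in LPS libraries (SD, n = 3). The share of Slfn5 was 6.04% ± 0.698 in control and 10% ± 0.561 in LPS libraries. The shares of Slfn3 and Slfn9, which rose less, were 13.5% and 11.1% in control libraries, with ranges of 12.8% to 14.7% and 10.4% to 12%, and 4.34% ± 0.176 and 3.35% ± 0.0700 in LPS libraries. Slfn4 and Slfn8 were minor in both groups, at 1.55% ± 0.294 and 0.954% ± 0.0450 in the LPS libraries. For each of the 6 tested members the shares of the groups did not overlap. How often this occurs for shares in other sets of genes was not computed as a background. Slfn1 was at most 0.109% in the LPS libraries. Its control share of 0 rests on counts of 0, each of which allows up to 3 counts, so its shares cannot be called separate. Shares of a sum are tied to each other, so a larger share of Slfn2 requires smaller shares elsewhere.

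**Figure D4:**
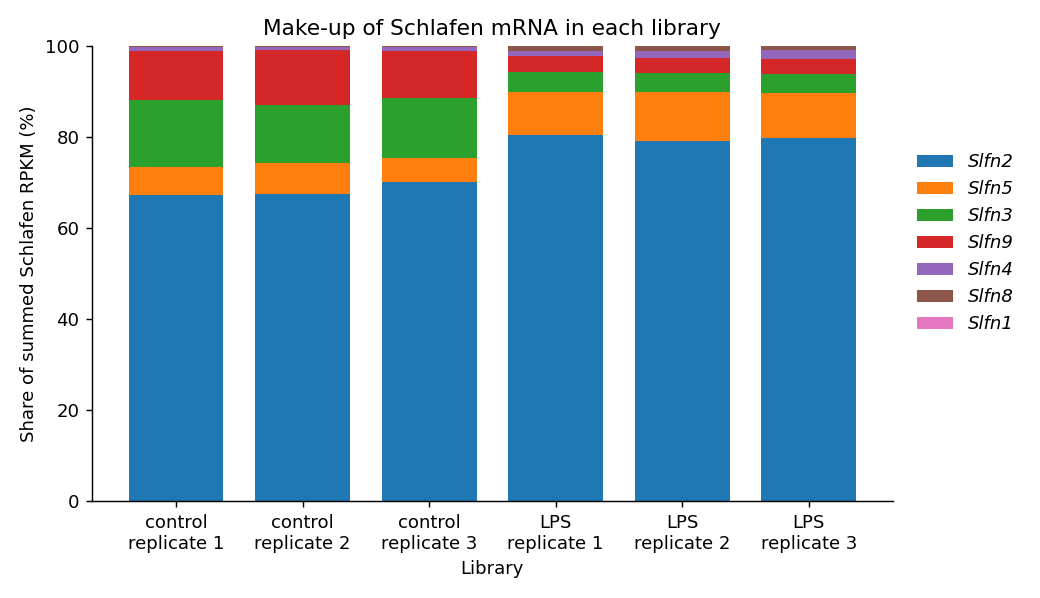
Share of each member in the summed Schlafen RPKM (%) for the 6 libraries, as stacked bars from 0 to 100%. Slfn2 takes 68.3% of the control bars and 79.7% of the LPS bars on average, and Slfn3 and Slfn9 shrink from 13.5% and 11.1% to 4.34% and 3.35%.

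Reads of near-identical paralogs can be divided between genes or lost in counting, and how the counting treated such reads is not given in the sources used here. In the transcripts of GENCODE release M21, 14.6% of the stretches of 50 bases in Slfn8 and 11.2% of those in Slfn9 also occur in another family gene. For Slfn4, Slfn3 and Slfn2 the shares were 8.15%, 7.39% and 4.27%, and for Slfn1 the share was 0.606%. With stretches of 100 bases the shares were 3.38% for Slfn8, 3.71% for Slfn9 and at most 0.128% for Slfn1, Slfn2, Slfn3 and Slfn4. For Slfn5, 7.38% of the 50-base stretches are shared, all with its antisense gene Slfn5os. Most of each member's transcript is therefore distinct from the other members at these lengths. Slfn10-ps (ENSMUSG00000072621), a transcribed pseudogene from 83028130 to 83040042 between Slfn8 and Slfn2, shares 11.8% of its 50-base stretches with Slfn8 and 13.5% with Slfn9. It was counted 198, 244 and 205 times in control cells and 511, 536 and 517 times after LPS. The rise of 1.41 ± 0.10 (SE) in log2 units (edgeR adjusted p = 2.2e-08) was near those of Slfn9 and Slfn3 and far from that of Slfn8. Slfn14, Slfnl1 and Slfn5os, the other genes of the table that bear the name, were at 0 in all 6 libraries, each of which allows up to 3 counts. Slfn5os overlaps Slfn5 and Gm20234 overlaps Slfn2, both on the opposite strand, and without known use of strand their reads cannot be told apart from those of the Schlafen gene. Gm20234 had at most 5 counts in any library.

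Genes around the cluster were compared to see whether the response extends along the chromosome. Of 57 genes inside the cluster or within 500 kb of it, those named Slfn left out, 16 were tested and 3 were up-regulated DEG. These were the chemokine genes Ccl5, Ccl4 and Ccl3, with log2 fold changes of 6.13, 2.03 and 1.56 (edgeR adjusted p = 9.5e-12, 3.3e-13 and 1.3e-12). Their midpoints lie 577, 712 and 697 kb from the first base of Slfn5, beyond a run of genes with small changes. A further 6 passed the test at a smaller rise, none fell, and 7 did not pass. For comparison, 2.40% of all tested genes were up-regulated DEG. With no threshold on the fold change, 18.7% rose and 15.7% fell at an edgeR adjusted p under 0.05. The median log2 fold change of the 16 genes around the cluster was 0.23. On the near side of Slfn5, the closest tested gene Nle1 rose by 0.23 ± 0.05 (SE) in log2 units (edgeR adjusted p = 0.0033), and Rad51d had -0.05 (edgeR adjusted p = 0.731). Farther out on that side, Rffl rose by 0.68 ± 0.09 (SE) in log2 units (edgeR adjusted p = 1.9e-05). Beyond Slfn3, Ap2b1 rose by 0.17 (edgeR adjusted p = 0.0363). Inside the cluster, the processed pseudogene Gm11425, next to Slfn10-ps, rose by 1.34 ± 0.20 (SE) in log2 units (edgeR adjusted p = 1.2e-04).

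**Figure D5:**
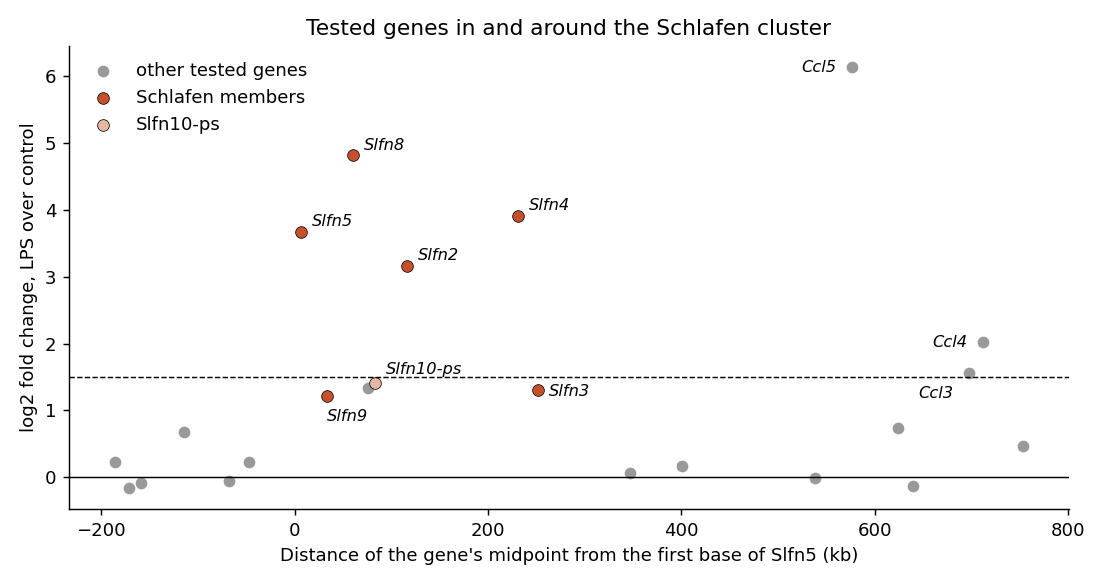
The log2 fold change of LPS over control for the tested genes in and around the cluster, against the distance of each gene's midpoint from the first base of Slfn5 (kb). The Schlafen members lie between 1.22 and 4.82, and outside the cluster only Ccl5, Ccl4 and Ccl3 lie above the dashed threshold of 1.5.

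The genes of type I interferon signaling, a list of 19, were examined beside the family. Of the 14 tested, 7 were up-regulated DEG, a further 3 rose below the threshold, 1 fell and 3 did not pass, with a median log2 fold change of 1.67. Over all tested genes, 2.40% were up-regulated DEG. At any fold change, 18.7% of all tested genes rose and 15.7% fell at an edgeR adjusted p under 0.05. Among the ligands, Ifnb1 had at most 1 count in any library and Ifna1, Ifna2, Ifna4 and Ifna5 were at 0 in all 6. The receptor chains Ifnar1 and Ifnar2 did not pass the test, at 0.15 and 0.09 (edgeR adjusted p = 0.0704 and 0.385). Of the receptor's kinases, Tyk2 rose by 0.92 ± 0.06 (SE) in log2 units (edgeR adjusted p = 8.1e-09) and Jak1 by 0.22 (edgeR adjusted p = 0.0013). Of the factors that bind the ISRE, Stat2 rose by 2.24 and Irf9 by 2.08 in log2 units (edgeR adjusted p = 3.6e-11 and 8.0e-12). Irf9 had means of 13 ± 0.280 CPM in control and 55 ± 1.94 CPM in LPS-stimulated cells (SD, n = 3). Irf7, which amplifies interferon responses, rose by 3.97 ± 0.07 (SE) in log2 units (edgeR adjusted p = 6.4e-15), and Irf1 by 1.30 (edgeR adjusted p = 5.5e-08). Irf8, a lineage factor of microglia, fell by 0.41 (edgeR adjusted p = 6.6e-05), and Irf3 did not pass (edgeR adjusted p = 0.744). Of the feedback inhibitors, Usp18 rose by 5.50, Socs1 by 2.37 and Socs3 by 2.08 (edgeR adjusted p = 8.1e-15, 1.3e-04 and 8.2e-14). Slfn8 thus rose less than Usp18 and more than Irf7, and Slfn3 and Slfn9 were near Irf1 in size. These differences between genes were not tested.

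The genes outside the family most like each member were found by the root mean square distance of centred log2 CPM over the 6 libraries, among 12289 genes. This measure mainly compares the size of the difference between the groups. For Slfn2 they were Irgm1 and Tnfrsf1b, at distances of 0.0683 and 0.0772, with log2 fold changes of 3.18 and 3.06. For Slfn5 they were Gm13822 and Ifi202b (0.092 and 0.0997), and for Slfn4 Traf1 and Edn1 (0.126 and 0.14). For Slfn8 they were Acod1 and Oasl1, at larger distances of 0.254 and 0.255 that include the scatter of its few control counts. For Slfn9 they were Ptgs2 and Osgin2 (0.0345 and 0.035), and for Slfn3 Stk40 and Gm26809 (0.0558 and 0.0711).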

How the data were processed

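RNA-seq was performed on control N9 microglia and on N9 microglia kept 6 h in 1 µg/ml LPS, with 3 libraries each, grouped by the labels. The authors deposited read counts per gene without normalization. Per the labels' processing notes, featureCounts 1.5.0-p3 and mm10 were used. The aligner, the use of strand and the treatment of reads that map to several places are not given in the sources used here. A further deposited table of the authors' comparison, which holds fold changes, p-values and 18 columns of values per sample, was not used. Total counts were between 16363767 and 17956772, 3 counts being between 0.161 and 0.19 CPM, and this floor covers counting error only, since no molecular identifiers are named and reads may be copies of the same molecule.

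The counts were tested with edgeR 4.0.16 under R 4.3.3 by the quasi-likelihood test with TMM normalization, filterByExpr, a prior count of 0.125 and no replicate term, and adjusted by Benjamini-Hochberg over 12296 genes. The SE is the size of the log2 fold change over the square root of F. RPKM used the gene length of the table. Promoter windows came from RefSeq (GRCm38.p6), transcripts from GENCODE release M21, and alignments were global, with Biopython 1.88. The fits were tested on simulated data.

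Alternatives were DESeq2 1.42.0, RLE factors, no filter, a mean of at least 10 counts, glmTreat, a prior count of 2, a replicate block and each library left out. The named genes were the members, all genes named Slfn, the interferon list, the genes within 500 kb, and the 2 genes most like each tested member. Of the lists, some genes are counted but not reported here by name. Members and lists were chosen with earlier results of these data known. The ETS-type string and the stretches shared by transcripts were looked for after the values were seen.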

Additional observations from a re-analysis of the deposited data

How the results depend on the processing

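There were 203 alternative values for the 6 tested members, their ratios, the number called and the fold of Slfn1 against 3 control counts. Of these, 1 turned its direction, the shift of the log2 ratio of Slfn3 to Slfn9. This shift was 0.09, with groups that overlapped, and it was -0.01 without control replicate 2. Some of the 203 could not turn, since the ratios of plain counts and the fold changes of glmTreat equal the main values by construction. Each of the 6 tested members had a positive log2 fold change in every alternative and stayed on its side of the DEG rule. The log2 fold change of Slfn8 ranged from 4.56 with a prior count of 2 to 5.05 with a library left out, and those of Slfn3 and Slfn9 stayed below 1.5, at 1.38 and 1.24 at most. By glmTreat, which tests against 1.5 itself, Slfn2, Slfn4, Slfn5 and Slfn8 were called, and Slfn3 and Slfn9 had an adjusted p of 1. The number of members called was 4 throughout, except 5 by DESeq2 and without the filter, which added Slfn1. Over all genes, 295 were up-regulated and 31 down-regulated. By glmTreat 181 were up-regulated and 2 down-regulated, and with no filter on low counts 91 were down-regulated. With each library left out in turn, between 38 and 62 were down-regulated, with 49 when control replicate 1, 62 when LPS replicate 1 and 52 when LPS replicate 2 or 3 was left out. The cause was not tested. Of the genes around the cluster, 2 to 4 were up-regulated and of the interferon list 6 to 7. With the replicate number as a block, 297 were up-regulated and 32 down-regulated, and no member changed its call, with Slfn8 at 4.82. The numbers were not taken as pairs, since the correlations of same-numbered libraries over 10458 genes were 0.127, 0.0499 and 0.0258, and control replicate 3 correlated best with LPS replicate 2 (0.0404). Depth limits the fold changes of Slfn1 and, through 8 to 12 control counts, of Slfn8.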
